A study of Homo sapiens with 2 samples.

Results

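The genes described here are 45 genes of DNA replication and mitosis in human enteric neural crest cells (ENCCs) made from H9, an established human embryonic stem cell line. They were chosen by name: 20 genes act in DNA replication, 21 in mitosis, and 4 (CCND1, CCND2, CDKN1A and CDKN1C) regulate entry into the cycle and belong to neither group. All 45 were found among the 33694 genes of both count tables. The 2 stages were sequenced, each as a single droplet-based 3′ library in which every captured RNA molecule is counted by its unique molecular identifier (UMI). D10 was a culture at day 10 of enteric neural crest induction, adherent on Geltrex, patterned with BMP and WNT signals followed by retinoic acid. D15 consisted of enteric crestospheres at day 15, floating aggregates formed by lifting such monolayers at the end of induction and culturing them in suspension with FGF2 and a WNT activator. Both groups came from the same unmodified cell line and received no further treatment. Each library pooled a pair of independent biological repeats whose cells cannot be told apart in the files, and stage, culture format, medium, depth and library cannot be told apart either. With 1 library per group there is no test, and the 95% intervals given here cover counting error only.

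The D10 library held 9627 cells and 70488169 UMIs, with a median of 6713 UMIs per cell, and the D15 library 6320 cells and 84976253 UMIs, with a median of 11770.5. The quality filters of the authors kept 7295 and 5336 of these cells. The libraries shared 102 cell barcodes, 1.06% of those at D10 and 1.61% of those at D15. The deposited annotation, which abbreviates the crest class as ENC and its subclusters as ENC 1 to ENC 4 and ENC 1' to ENC 4', marked 4921 ENCCs at D10 (36948088 UMIs, median 7004 per cell) and 4934 at D15 (55849299 UMIs, median 11082). The other kept cells at D10 were 1811 neuro-epithelial progenitors (NEP), 324 cranial placode cells (CP) and 239 non-neural ectoderm cells (NNE), and those at D15 were 208 CP1, 104 NEP, 47 mesenchymal (Mes) and 43 CP2 cells. SOX10 and ERBB3, markers of the crest, were among the 10 leading genes of the ENCCs in both libraries. The keratins KRT19 and KRT18, and neither WNT2B nor PAX6, were among the 10 leading genes of the cells annotated NEP at D15, and PAX6 was the only marker gene among those of CP2. Neither class is therefore compared across stages, and their names are used here only as the annotation gives them. None of the NNE markers EPCAM, CDH1, KRT19, KRT8 and KRT18 was among the 10 leading genes of NNE. Each still had a higher level there than in the other kept D10 cells.

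A cell copies its genome once per division. The MCM2 to MCM7 proteins form the helicase that CDC6 and CDT1 load onto DNA in G1, cyclin E and its kinase help to fire it at the start of S phase, and PCNA, FEN1 and the DNA polymerases work at the moving forks. In G2 and M phase, cyclins A and B activate CDK1, the Aurora and Polo kinases build the spindle, the BUB checkpoint delays anaphase, and CDC20 and UBE2C help the anaphase-promoting complex to destroy the cyclins. Transcription of the replication genes is known to depend on E2F factors, and that of the mitotic genes on complexes that bind an element called CHR, often beside CCAAT boxes. Migrating enteric neural crest cells divide continually as they colonise the gut, and the cyclin-dependent kinase inhibitors CDKN1A (p21) and CDKN1C (p57) slow or stop that cycle.

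The promoters of the members are shown because they tell the replication members from the mitosis members without use of any expression value. Of the 45 members, 34 had a promoter window in RefSeq on GRCh38.p14, from 250 bases before to 50 after a transcription start: 17 replication members, 16 mitosis members and 1 regulator. Each window was searched on both strands for E2F-type letters (TTTGGCGC, TTTCGCGC, TTTCCCGC or TTTGCCGC), for the CHR letters TTTGAA and for CCAAT. E2F-type letters were found in 12 of 17 replication members (70.6%) and 2 of 16 mitosis members (12.5%), against 3.99% of the 27305 genes with a window. The CHR letters showed the opposite pattern, in 1 of 17 replication members (5.88%) and 11 of 16 mitosis members (68.8%), against 18.2% of all genes. CCAAT was common in both groups, in 12 of 17 (70.6%) and 14 of 16 (87.5%), against 39.7% of all genes. A gene with several windows was counted where any of them held the letters. The 160 bases before the start are given below, 5′ to 3′ on the gene's own strand, for 3 replication members and 4 mitosis members that recur in the results: CDT1 (chr16:88803629-88803788, plus strand), MCM6 (chr2:135876444-135876603, minus strand), PCNA (chr20:5126623-5126782, minus strand), CCNB2 (chr15:59104986-59105145, plus strand), PLK1 (chr16:23678729-23678888, plus strand), CDC20 (chr1:43358821-43358980, plus strand) and MKI67 (chr10:128126424-128126583, minus strand). Letters in capitals are the matches, and GCGGGAAA, GCGCGAAA and ATTGG are the same letters read from the other strand.
CDT1: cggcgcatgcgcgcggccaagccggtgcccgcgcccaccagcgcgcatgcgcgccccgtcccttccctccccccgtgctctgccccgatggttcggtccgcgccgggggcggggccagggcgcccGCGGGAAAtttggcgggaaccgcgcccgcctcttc
MCM6: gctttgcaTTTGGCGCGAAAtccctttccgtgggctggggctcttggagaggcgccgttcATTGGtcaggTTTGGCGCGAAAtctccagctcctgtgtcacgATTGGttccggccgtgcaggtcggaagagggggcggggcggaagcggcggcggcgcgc
PCNA: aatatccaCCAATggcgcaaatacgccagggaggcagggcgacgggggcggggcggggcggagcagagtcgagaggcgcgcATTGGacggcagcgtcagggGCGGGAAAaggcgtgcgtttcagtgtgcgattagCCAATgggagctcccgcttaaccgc
CCNB2: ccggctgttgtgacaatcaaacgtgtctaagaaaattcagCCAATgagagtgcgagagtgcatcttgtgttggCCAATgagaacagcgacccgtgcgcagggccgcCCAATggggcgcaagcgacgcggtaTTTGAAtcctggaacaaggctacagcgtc
PLK1: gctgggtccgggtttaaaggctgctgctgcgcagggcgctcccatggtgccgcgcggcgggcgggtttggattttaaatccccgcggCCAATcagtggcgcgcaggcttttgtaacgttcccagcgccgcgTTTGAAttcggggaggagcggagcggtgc
CDC20: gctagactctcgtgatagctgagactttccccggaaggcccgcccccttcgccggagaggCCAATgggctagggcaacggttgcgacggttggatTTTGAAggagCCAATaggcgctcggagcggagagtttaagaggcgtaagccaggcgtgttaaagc
MKI67: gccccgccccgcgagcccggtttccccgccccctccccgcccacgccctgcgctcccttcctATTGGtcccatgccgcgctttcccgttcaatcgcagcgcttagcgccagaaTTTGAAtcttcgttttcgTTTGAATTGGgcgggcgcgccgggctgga
In MCM6 the forward and reverse E2F-type letters overlap, so each 12-base run in capitals holds both, and these runs begin 152 and 90 bases before the start. In CCNB2, PLK1 and MKI67 a CHR run begins 29 bases before the start, with CCAAT letters further out. In MKI67 that run shares letters with a reversed CCAAT box. PCNA had 2 windows, and the one printed was chosen because it held E2F-type letters, which the other did not. Each printed member holds the letters typical of its group, which not all members do. A match describes these letters only and was not tested as a binding site.

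The phases that the members mark were examined before the stages were compared. The deposited phase calls (G1, S or G2M) come from 2 gene sets that hold 33 of the 45 members, so the levels of these members by deposited phase are partly built in. All kept cells were therefore scored again with Seurat after all 45 members had been taken out, which left 26 S genes and 37 G2M genes. Levels are given as CPM, the UMIs of a gene in each 1000000 UMIs summed over the same cells. A gene counts as higher or lower here when its ratio of CPM was at least 1.5 and the counting interval of the ratio excluded equality, and only genes that reached 5 CPM on either side of the ratio were counted. With these phases, all 20 replication members had their highest level in S and all 21 mitosis members in G2M, at both stages. In S over G1 cells, 19 of 20 replication members were higher at D10, where 6.76% of all genes were, and 20 of 20 at D15, where 7.39% of all genes were. In G2M over G1 cells, 21 of 21 mitosis members were higher at D10, against 8.14% of all genes, and 21 of 21 at D15, against 6.19%. With the deposited phases these counts were 19 of 20 (7.1% of all genes) and 20 of 20 (11.3%) in S, and 21 of 21 (9.25%) and 21 of 21 (11.0%) in G2M.

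The distance between phases was smaller at D15 than at D10 for both groups. The median log2 ratio of S over G1 over the replication members was 1.64 at D10 and 1.08 at D15, and that of G2M over G1 over the mitosis members was 3.43 at D10 and 2.32 at D15. With the deposited phases these medians were 1.98 and 1.47, and 3.65 and 3.19. PLK1, the Polo kinase, which is in neither scoring set, had 8.03 CPM in G1, 13.0 in S and 131 in G2M at D10, and 7.72, 10.3 and 84.3 CPM at D15. CCNE2, a cyclin E that fires origins, had the largest S over G1 ratio of the replication members at both stages, from 1.09 to 10.7 CPM at D10 and from 4.67 to 25.4 CPM at D15. CCNB2, a mitotic cyclin, had the smallest G2M over G1 ratio of its group at both stages, at 78.0 and 152 CPM at D10 and 45.4 and 93.7 CPM at D15. The phase calls were less stable at D15: scoring again with the full gene sets gave the deposited phase to 93.4% of kept cells at D10 and 82.6% at D15, and moved 23.7% and 41.4% of the deposited S cells to another phase. Scoring without the members gave the deposited phase to 91.0% of kept cells at D10 and 77.9% at D15. The share of ENCCs in S was 31.5% at D10 and 42.4% at D15 with the deposited phases. It was 24.4% and 24.8% when scored again with the full sets, and 24.9% and 22.9% without the members. With each cell first thinned at random to 3000 UMIs, scoring without the members gave 35.0% and 36.5%. Over 5 further draws these thinned shares lay between 33.3% and 35.2% and between 34.0% and 36.9%. The size and direction of this difference therefore depend on the scoring. Cells in G2M were also deeper than cells in G1, with deposited median UMIs of 8452.5 and 6578 at D10 and 12980 and 10048 at D15 over kept cells, and the part of depth in the phase calls was not tested.

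**Figure D1:**
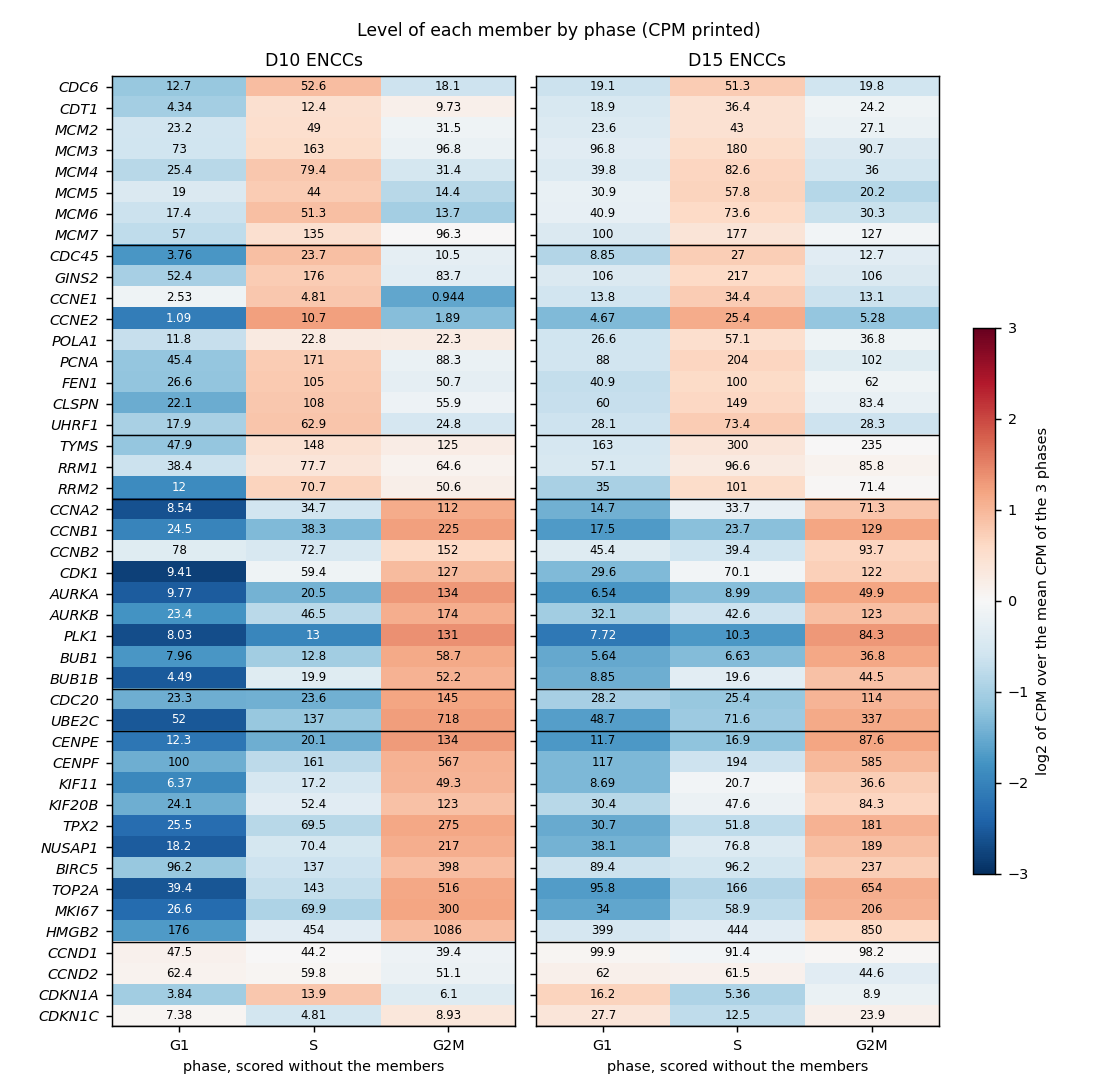
Level of each member (rows) in D10 and D15 ENCCs by cell cycle phase (columns), with the CPM printed in each cell and the colour giving log2 of the CPM over the mean of the 3 phases. Phases were scored without the members; all 20 replication members are highest in S and all 21 mitosis members in G2M at both stages, while CDKN1A is highest in S at D10 and in G1 at D15.

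Among the 4 regulators, 2 were highest in G1 at D10 and 4 at D15. CDKN1A, the inhibitor p21, had 3.84 CPM (95% interval 2.87 to 5.02) in G1, 13.9 (11.6 to 16.5) in S and 6.10 (4.87 to 7.55) in G2M at D10. At D15 the same gene had 16.2 (14.7 to 17.9), 5.36 (4.17 to 6.80) and 8.90 CPM (7.59 to 10.4). Its intervals in G1 and S did not overlap at either stage, and the order of these phases was opposite at the 2 stages. CDKN1C, the inhibitor p57, had 7.38, 4.81 and 8.93 CPM in G1, S and G2M at D10 and 27.7, 12.5 and 23.9 CPM at D15, with its lowest level in S at both stages. CCND1, a D-type cyclin of G1, was nearly level over the phases, between 39.4 and 47.5 CPM at D10 and between 91.4 and 99.9 CPM at D15.

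The stage comparison asks how the members differed between ENCCs of the adherent cultures and ENCCs of the crestospheres. Of 20 replication members, 8 were higher at D15 and 0 lower, and of 21 mitosis members, 0 were higher and 9 lower, which left 12 members of each group short of the call. The log2 ratio lay above 0 for 19 of 20 replication members and below 0 for 18 of 21 mitosis members. Over the 9257 genes at the minimum, 15.4% were higher and 20.2% lower. The median log2 ratio of D15 over D10 was 0.46 over the replication members and -0.51 over the mitosis members, against -0.15 over all genes. Of the 3 regulators that were higher, CDKN1C, CCND1 and CDKN1A, none is in the scoring sets. Over the 12 members outside those sets, 5 were higher and 2 lower.

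Of the 8 licensing members, CDT1 and MCM6 were higher. CDT1, which loads the helicase, had 8.39 CPM at D10 (310 UMIs) and 24.6 CPM at D15 (1375 UMIs), a log2 ratio of 1.55 (95% interval 1.37 to 1.74). MCM6 had 24.6 and 44.8 CPM (log2 ratio 0.86, 0.75 to 0.98). The other subunits of the same ring moved less: MCM3 had 105 and 114 CPM, MCM7 91.5 and 126 CPM, and MCM2, the lowest of the role, 32.8 and 29.1 CPM (log2 ratio -0.17, -0.28 to -0.06). The 6 MCM subunits therefore did not move by a common factor.

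Of the 9 origin firing and fork members, CCNE1, CCNE2, POLA1 and CLSPN were higher. CCNE1, cyclin E1, had 2.52 CPM at D10 (93 UMIs) and 18.2 CPM at D15 (1018 UMIs), a 7.24-fold ratio (log2 ratio 2.86, 2.55 to 3.18) and the largest of all members. CCNE2, its paralogue, had 3.82 and 9.58 CPM (log2 ratio 1.33, 1.06 to 1.61). POLA1, the catalytic subunit of the primase-linked polymerase, had 18.5 and 36.9 CPM (1.00, 0.87 to 1.12), and CLSPN, a checkpoint adaptor at the fork, 56.4 and 87.9 CPM (0.64, 0.56 to 0.71). PCNA, the sliding clamp, had 93.3 and 119 CPM (0.35, 0.29 to 0.41), and FEN1, the flap nuclease, 55.3 and 61.3 CPM (0.15, 0.07 to 0.23), both short of 1.5-fold. Of the nucleotide supply members, TYMS, thymidylate synthase, had 102 and 218 CPM (1.10, 1.04 to 1.15), RRM2, the regulated subunit of ribonucleotide reductase, 41.3 and 62.1 CPM (0.59, 0.50 to 0.68), just inside the 1.5-fold limit, and RRM1, its partner, 58.1 and 75.6 CPM (0.38, 0.30 to 0.46).

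Of the 9 mitotic cyclins and kinases, 5 were lower: AURKA, CCNB1, CCNB2, BUB1 and PLK1. AURKA, the spindle pole kinase, had 58.8 CPM at D10 and 21.5 CPM at D15 (log2 ratio -1.45, -1.56 to -1.35), the lowest ratio of all members. CCNB1, cyclin B1, had 103 and 55.8 CPM (-0.88, -0.95 to -0.81), and PLK1 55.0 and 33.7 CPM (-0.70, -0.80 to -0.61). CDK1, the kinase that the B cyclins activate, had 65.7 and 69.6 CPM (0.08, 0.01 to 0.16), the highest ratio of the role. CCNA2, cyclin A2, had 53.9 and 37.8 CPM (-0.51, -0.60 to -0.42), short of 1.5-fold, and BUB1B, a checkpoint kinase relative, 26.2 and 23.2 CPM (-0.18, -0.30 to -0.06).

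Of the anaphase-promoting complex members, UBE2C, its ubiquitin-conjugating enzyme, had 322 and 149.7 CPM (log2 ratio -1.10, -1.14 to -1.06), while CDC20, its activator, had 68.6 and 56.1 CPM (-0.29, -0.37 to -0.21). Of the 10 spindle, kinetochore and chromosome proteins, CENPE, TPX2 and BIRC5 were lower. CENPE, a kinetochore motor, had 59.7 and 38.1 CPM (-0.65, -0.74 to -0.56). TOP2A, the topoisomerase that untangles sister chromosomes, was the highest of this role by ratio, with 243 and 297 CPM (0.29, 0.25 to 0.33). MKI67, which coats mitotic chromosomes and is the gene of the Ki-67 antigen, had 139 and 96.9 CPM (-0.53, -0.58 to -0.47). The counting intervals of TOP2A and MKI67, both widely read as marks of dividing cells, lay on opposite sides of equality.

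Among the regulators, CDKN1C had 7.31 and 23.0 CPM (log2 ratio 1.66, 1.47 to 1.85) and CCND1 43.7 and 97.4 CPM (1.16, 1.08 to 1.24). CDKN1A had 7.23 and 11.3 CPM (0.65, 0.44 to 0.86). CCND2, the other D-type cyclin measured, had 57.5 and 56.2 CPM (-0.04, -0.12 to 0.04). A cyclin that drives G1 and inhibitors that oppose it were thus higher at D15 together.

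**Figure D2:**
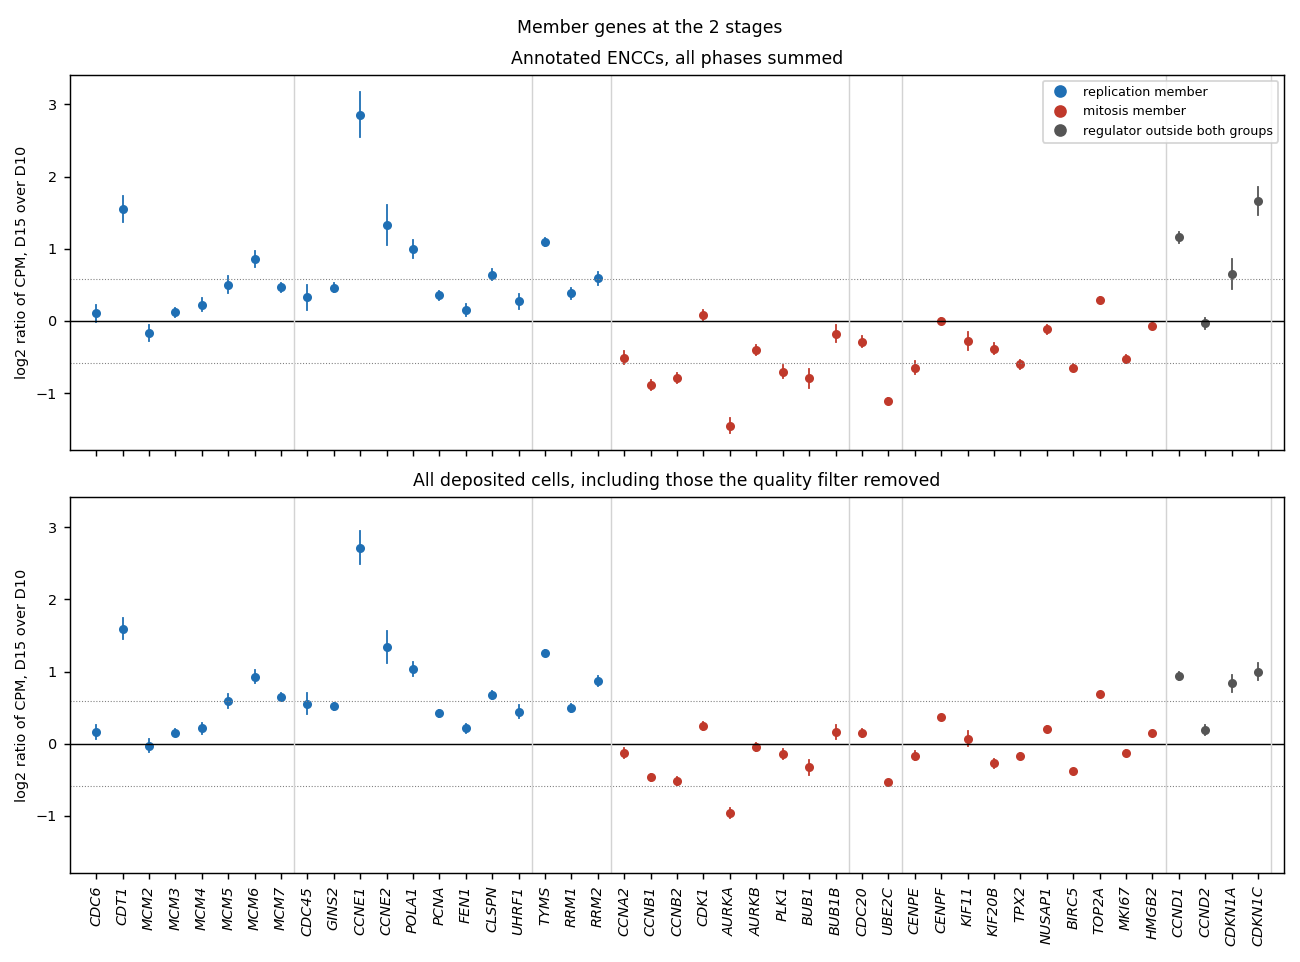
Log2 ratio of CPM, D15 over D10, of each member in annotated ENCCs (upper panel) and in all deposited cells (lower panel), grouped by role, with 95% counting intervals as bars and dotted lines at a ratio of 1.5 up and down. Most replication members lie above 0 in both panels, whereas mitosis members have a median of -0.51 above and -0.13 below.

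Other genes of the same pathways, listed apart from the members, were counted in the same ENCC sums. Of 51 further replication genes at the minimum (54 in the files), 7 were higher and 0 lower, with a median log2 ratio of 0.18, and this share of higher genes was no larger than the 15.4% of all genes. Of 62 further mitosis genes (63 in the files), 4 were higher and 25 lower, with a median of -0.45, where 20.2% of all genes were lower. Of 19 further regulators of G1 and arrest, 4 were higher and 3 lower. The largest ratios were those of E2F1, the activator of the replication genes, with 3.22 CPM at D10 and 21.1 CPM at D15, and of CDC25B, a phosphatase that activates CDK1, with 38.6 and 5.96 CPM. SLBP, which binds histone mRNA, had 22.6 and 91.3 CPM, and MYBL2, a transcription factor of the mitotic genes, 13.7 and 45.4 CPM. CENPA, the centromeric histone, had 65.1 and 17.6 CPM, CKS2, a CDK1 adaptor, 405 and 140.4 CPM, CDCA3, a mitotic entry factor, 40.7 and 15.8 CPM, and NEK2, a centrosome kinase, 21.5 and 9.17 CPM. The activators E2F1 and MYBL2 were thus higher together, while the mitotic genes of the list had a median below that of all genes.

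Marker lists were counted beside these results. Over all genes in this comparison, 15.4% were higher and 20.2% lower. Of 10 genes of the dissociation response at the minimum (14 in the files), 3 were higher and 2 lower. Of 17 p53 targets (19), 4 were higher and 3 lower, and of 8 neuronal markers (18), 4 were higher and 2 lower. Their part in the stage difference was not tested. Scaling by trimmed means (TMM) in place of total UMIs moved the median log2 ratio of all genes from -0.15 to 0.03 and raised every member's ratio by the same amount. HMGB2, a chromosome protein whose log2 ratio was -0.07, lay at 0.10 with that scaling. The count of mitosis members that were lower was 5 of 21 with TMM, where 1225 of 9257 genes were lower. With removed cells closest to the ENCCs added, the count was 3 of 21, a share no larger than the 19.0% of all genes.

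Within phases scored without the members, the difference between the 2 groups of members was not the same in each phase. The median log2 ratio of D15 over D10 over the replication members was 0.95 in G1, 0.35 in S and 0.41 in G2M, against -0.18, -0.07 and -0.13 over all genes. Over the mitosis members it was 0.28 in G1, -0.14 in S and -0.55 in G2M. In G2M cells, where these genes had their highest levels, AURKA had 134 and 49.9 CPM at D10 and D15, UBE2C 718 and 337 CPM, CCNB1 225 and 129 CPM, and TOP2A 516 and 654 CPM. In G1 cells, CDK1 had 9.41 and 29.6 CPM and TOP2A 39.4 and 95.8 CPM, higher at D15, while AURKA had 9.77 and 6.54 CPM. These G1 cells were 41.7% of ENCCs at D10 and 47.3% at D15, against 39.0% and 34.7% with the deposited phases. CCNE1 was higher at D15 within every phase, with 2.53 and 13.8 CPM in G1, 4.81 and 34.4 in S and 0.944 and 13.1 in G2M. CDKN1A had 3.84 and 16.2 CPM in G1 but 13.9 and 5.36 CPM in S.

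The stages were also compared over all deposited cells, including those the quality filters removed. Of 20 replication members 10 were higher at D15 and 0 lower, and of 21 mitosis members 1 was higher and 1 lower, where 16.0% of 9904 genes were higher and 22.9% lower. The median log2 ratio was 0.57 over the replication members and -0.13 over the mitosis members, against -0.16 over all genes. The mitosis member that was higher was TOP2A, with 211 CPM at D10 and 341 CPM at D15, and the one that was lower was AURKA, with 53.1 and 27.3 CPM. UBE2C had 271 and 187 CPM and MKI67 117 and 107 CPM. The makeup of the 2 libraries in cell types and removed cells differed, and its part in these values was not tested.

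The share of cells with a UMI was compared after each cell had been thinned to 3000 UMIs. TOP2A was detected in 34.4% of D10 ENCCs (1692 of 4919 cells) and 37.5% of D15 ENCCs (1852 of 4934), and in 51.4% and 61.3% without thinning. MKI67 was detected in 25.2% and 20.1%, PCNA in 21.5% and 28.9%, and CCNE1 in 0.834% and 5.49% of the thinned cells, and without thinning in 41.2% and 43.8%, 43.1% and 63.1%, and 1.85% and 17.2%. In CP2, the class with the lowest levels of these genes, TOP2A and MKI67 were detected in 0 of 43 thinned cells (a floor of 3 cells would be 6.98%, and the Clopper-Pearson upper bound is 8.22%), and PCNA in 3 of 43 (Clopper-Pearson interval 1.46% to 19.1%), at a median depth of 9256 UMIs against 7004 and 11082 in the ENCCs. At least 5 of the 21 mitosis members were detected in 41.7% of D10 ENCCs, 34.9% of D15 ENCCs and 0 of 43 CP2 cells. Over 5 further draws of the thinning, the share with TOP2A lay between 34.1% and 35.8% at D10 and between 37.2% and 38.5% at D15, and that with MKI67 between 24.7% and 26.1% and between 19.0% and 20.2%. The share with PCNA lay between 21.4% and 22.6% and between 27.2% and 28.6%. For CCNE1 it lay between 0.773% and 0.955% and between 4.95% and 5.35%. The D15 shares of PCNA and CCNE1 given above were therefore higher than in any of these draws. In CP2, TOP2A and MKI67 each lay between 0% and 2.33%, and PCNA between 2.33% and 9.30%. The directions of the thinned shares were those of the CPM.

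The annotated types were set against the ENCCs of their own library. Their levels are sums over cells, so fewer cycling cells and less RNA per cycling cell cannot be told apart in them. Every type at D10 had lower members than the ENCCs. In NEP, 14 of 20 replication members and 18 of 21 mitosis members were lower and 0 higher, where 8.06% of all genes were lower and 26.1% higher, and the medians were -0.72 and -0.83. In CP, 6 replication and 16 mitosis members were lower and 0 higher (6.92% of all genes lower, 12.1% higher), with medians of -0.45 and -0.77. In NNE, 10 replication and 7 mitosis members were lower (9.57% of all genes) and 1, CCNE1, was higher (24.6% of all genes), with 5.96 CPM on 11 UMIs against 2.52 CPM in the ENCCs. TOP2A had 243 CPM in the D10 ENCCs, 141 in NEP, 139 in CP and 138 in NNE. With phases scored without the members, 71.4% of NEP cells and 41.7% of ENCCs were in G1. When levels per phase were weighted to the phase shares of the ENCCs, 6 members were lower in NEP, 2 in CP and 5 in NNE. The medians over replication and mitosis members were -0.38 and 0.011 in NEP, -0.082 and -0.20 in CP, and -0.36 and -0.0012 in NNE. The interval of a weighted ratio was that of the unweighted ratio, shifted with the value. It leaves out the counting error of phases with few cells, so these counts do not meet the rule for a call. The shares of all genes with this weighting were not recorded.

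At D15 the types spread widely around the ENCCs. Of the 47 Mes cells, few members differed by a call: 0 of 41 replication and mitosis members were lower (3.63% of all genes) and 2, MCM7 and CCNA2, were higher (12.2%), with medians of 0.33 and 0.11, and 32 of the 41 ratios lay above 0. With TMM scaling, 3 members were lower in Mes, and the share of all genes with that scaling was not recorded. MCM7 had 203 CPM in Mes against 126 in the ENCCs, and CCNA2 58.8 against 37.8 CPM. In CP1, 19 of 20 replication members but 10 of 21 mitosis members were lower and 0 higher (12.7% of all genes lower, 29.9% higher), with medians of -1.36 and -0.58. CDT1 had 3.35 CPM on 8 UMIs in CP1 against 24.6 in the ENCCs, the lowest ratio there, while UBE2C had 180.4 CPM against 149.7. All 18 neuronal markers were higher in CP1, and their part in these ratios was not tested.

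In the cells annotated NEP at D15, 20 of 20 replication and 20 of 21 mitosis members were lower and 0 higher (9.3% of all genes lower, 32.9% higher), with medians of -1.25 and -1.45. HMGB2 was the member that was not, with 462 CPM against 559. TOP2A had 99.4 CPM in NEP against 297 in the ENCCs, MKI67 28.8 against 96.9, PCNA 53.2 against 119 and UBE2C 40.1 against 149.7. Phase shares were again weighted to those of the ENCCs, with intervals shifted in the same way and the shares of all genes not recorded. In NEP, 8 members were then lower on 5 S and 11 G2M cells, with medians of -0.10 and -0.33. In CP1, 12 were lower on 1 S and 40 G2M cells, with medians of -0.61 and 0.27. In CP2, all 20 replication and all 21 mitosis members were lower (10.6% of all genes) and 0 higher (34.8%), with medians of -3.22 and -3.93. TOP2A had 3 UMIs there (7.46 CPM), and 11 members had 0 UMIs. Among these, BIRC5, the survivin gene, was at least 18.7-fold lower than in the ENCCs and CDK1 at least 9.32-fold lower, taking 3 UMIs over the class as the floor. All 43 CP2 cells were in G1.

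**Figure D3:**
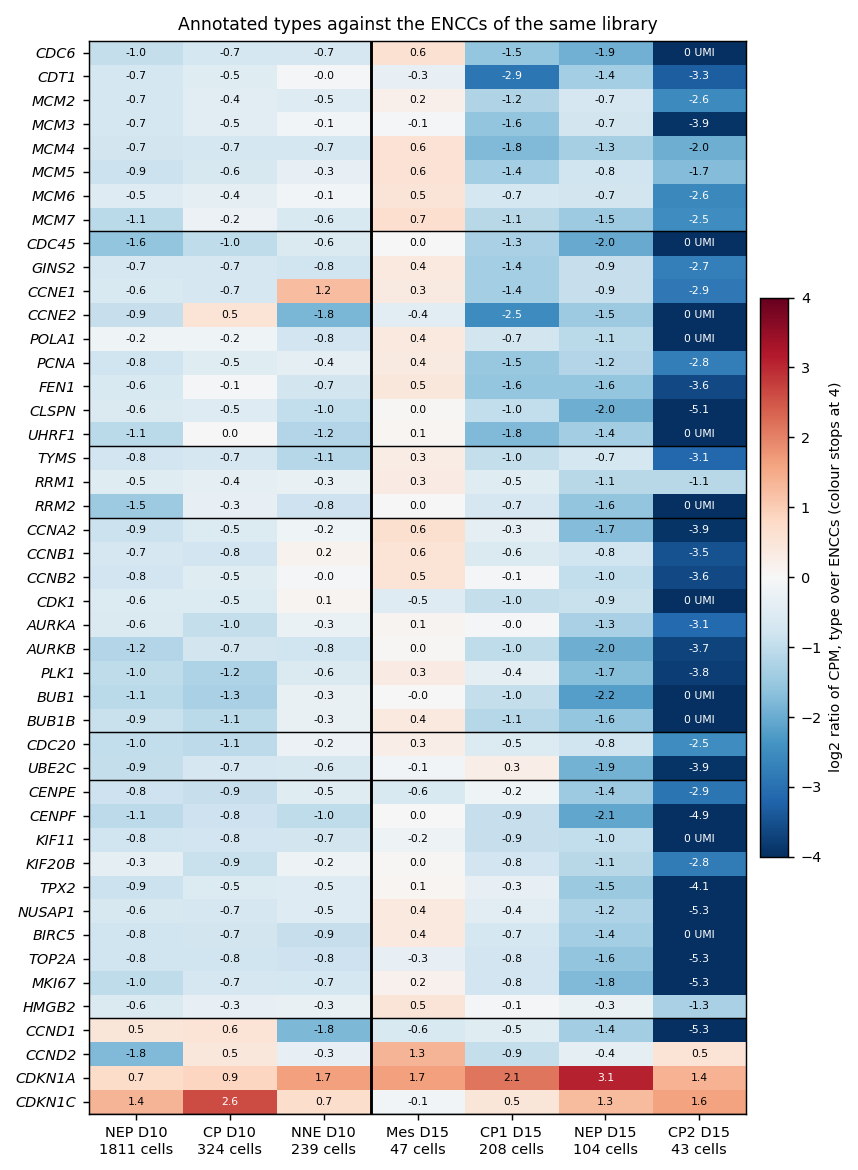
Log2 ratio of CPM of each member (rows) in each annotated type over the ENCCs of the same library (columns, with the number of cells), printed in each cell and coloured up to a log2 of 4, with 0 UMI marking members without a count. Blue cells, lower than in the ENCCs, fill most of the replication and mitosis rows of NEP D15 and CP2 D15, few of Mes D15, and CDKN1A is red in every type.

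The inhibitors stood above the ENCCs in most types. CDKN1A was higher than in the ENCCs in all 7 types, against backgrounds of 12.1% to 34.8% of genes. At D10 it had 7.23 CPM in the ENCCs (95% interval 6.39 to 8.15), 12.0 in NEP (10.2 to 13.9), 13.2 in CP (9.06 to 18.5) and 22.7 in NNE (16.4 to 30.8). At D15 it had 11.3 CPM in the ENCCs (10.5 to 12.2), 29.9 in CP2 (15.4 to 52.1), 35.7 in Mes (21.8 to 55.1), 49.4 in CP1 (40.9 to 59.2) and 95.9 in NEP (78.8 to 116). The interval of CP at D10 overlapped those of NEP and NNE, which did not overlap each other. Those of CP2, Mes and CP1 at D15 overlapped, while NEP at D15 stood above each of the others. Of 18 further p53 targets at the minimum in NEP at D15 (19 in the files), 15 were higher and 0 lower, among them MDM2, with 76.7 CPM against 29.3, and GDF15, with 18.3 against 6.98. CDKN1C was higher in 5 of the 7 types, with its largest ratio in CP at D10, where it had 44.7 CPM against 7.31 in the ENCCs (log2 ratio 2.61, 2.28 to 2.93).

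The D-type cyclins differed by type. CCND1 had 12.5 CPM in NNE, 43.7 in the ENCCs, 61.4 in NEP and 64.2 in CP at D10. At D15 it had 2.49 CPM on 1 UMI in CP2, 37.5 in NEP, 64.2 in Mes, 70.3 in CP1 and 97.4 in the ENCCs, which had the highest level. CCND2 had its lowest level in NEP at D10, at 17.0 CPM against 57.5 in the ENCCs, and its highest in Mes, at 143 CPM against 56.2. In CP2, CCND2 had 82.1 CPM while CCND1 was at 1 UMI, so the 2 cyclins were far apart there.

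Subclusters of the ENCCs were described against the other numbered ENCCs of the same library. The clusters were drawn by the authors from the expression of these and other genes, after the S and G2M scores had been regressed out, so their differences are descriptions. The medians over replication and mitosis members were 0.14 and 0.08 in ENC 1, -0.04 and 0.01 in ENC 2, -0.16 and -0.58 in ENC 4, -0.06 and 0.12 in ENC 1', 0.26 and 0.06 in ENC 2', and -0.23 and -0.30 in ENC 3'. In ENC 4 (187 cells), all 21 mitosis members had a ratio below 0 and 9 were lower, 0 replication members were lower, and CDKN1C and CCND1 were higher (4.44% of all genes lower, 5.09% higher). CDKN1C had 22.4 CPM on 31 UMIs there against 6.15 (log2 ratio 1.87, 1.27 to 2.42), and UBE2C 209.9 against 338. Of 12 neuronal markers at the minimum in ENC 4 (18 in the files), 11 were higher and 1 lower, and their part in these ratios was not tested. With phase shares weighted to those of the ENCCs, the median of its mitosis members was -0.057. ENC 3 and ENC 4' are described in more detail because they hold the lowest ratios among the subclusters.

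ENC 3 held 348 D10 cells with a median of 6259 UMIs, against 7094 in the other numbered ENCCs. Of its members, 9 replication members were lower and 0 higher (median -0.63), and 5 mitosis members were higher and 5 lower (median 0.01), where 4.2% of all genes were higher and 7.44% lower. CDK1 had 10.2 CPM (23 UMIs) against 71.4 CPM elsewhere, a log2 ratio of -2.80 (-3.46 to -2.21). This ratio ranked 14 from the lowest of the 8849 genes with at least 5 CPM, and was the lowest of the 2096 with at least 50 CPM. AURKA had 14.7 against 63.5 CPM, TOP2A 97.0 against 260.3, UBE2C 144 against 346 and KIF11, a spindle motor, 12.9 against 26.0. In the opposite direction, CDC20 had 162 against 64.3 CPM (1.33, 1.17 to 1.49), BIRC5 399.7 against 212, HMGB2 939 against 573, BUB1 49.0 against 27.1 and CCNB2 157 against 103. Mitotic genes were thus split within a single subcluster, with the kinase CDK1 low beside a high level of its cyclin CCNB2.

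The split of ENC 3 was also seen within a phase. With phases scored without the members, 42.2% of ENC 3 cells were in G2M and 4.02% (14 of 348) in S, and over 5 random thinnings of the cells to 3000 UMIs before scoring these shares lay between 24.4% and 33.3% and between 16.7% and 21.0%. Within G2M cells, CDK1 had 16.1 CPM in ENC 3 against 136 elsewhere, AURKA 28.9 against 143, TOP2A 136 against 548 and UBE2C 188 against 767, while CDC20 had 247 against 138. CCNB1 had 252 against 225 CPM there, within its counting error. In the 187 ENC 3 cells scored as G1, mitosis members stood above those of other G1 cells, with a median log2 ratio of 1.62, and CCNB1 had 71.1 against 17.9 CPM and TOP2A 69.5 against 35.0. After thinning to 3000 UMIs, at least 5 mitosis members were detected in 64.4% of ENC 3 cells, against 41.7% of all D10 ENCCs, and TOP2A in 23.0% against 34.4%, with 65.2% to 69.0% and 21.6% to 27.0% of ENC 3 cells over 5 further draws. Without thinning, TOP2A was detected in 41.1% of ENC 3 cells. Of 50 further replication genes at the minimum in ENC 3, 26 were lower and 0 higher, and of 62 further mitosis genes, 5 were higher and 27 lower, where 4.2% of all genes were higher and 7.44% lower.

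ENC 4' held 138 D15 cells with a median of 10290 UMIs, against 11113 in the other numbered ENCCs. All 20 replication members were lower (median -1.59), and 14 of 21 mitosis members were lower and 1, HMGB2, higher (median -0.85), where 24.6% of all genes were lower, 9.1% were higher and the median of all genes was -0.27. RRM2 had 7.92 against 63.7 CPM (log2 ratio -3.01, -3.96 to -2.20), FEN1 9.89 against 62.9 and PCNA 23.7 against 122. CDC45, a partner of the helicase, had 1 UMI, and CCNE2 had 0 UMIs and was at least 4.99-fold lower. MKI67 had 26.4 against 99.1 CPM, TOP2A 186 against 301 and HMGB2 909 against 549. CDKN1C had 75.9 against 21.4 CPM (1.82, 1.53 to 2.10), while CCND1 had 31.7 against 99.4 and CCND2 30.3 against 57.0, and CDKN1A, with 11.9 against 11.1 CPM, was within its counting error. Phase shares were also weighted to those of the ENCCs, which rested on the 2 S and 16 G2M cells of ENC 4'. By the shifted intervals of such ratios, 16 of the 41 replication and mitosis members were then past 1.5-fold, up or down. Without weighting, 24.6% of all genes were lower and 9.1% higher, and the shares with weighting were not recorded. The weighted medians over replication and mitosis members were -0.69 and 0.29. TOP2A, CDK1, CENPF and NUSAP1 had weighted log2 ratios of 0.37, 0.43, 0.24 and 0.35.

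With phases scored without the members, 87.0% of ENC 4' cells were in G1, 2 in S and 16 in G2M. Within G1 cells PCNA had 17.2 against 92.0 CPM, RRM2 3.13 against 36.8, MKI67 5.48 against 35.8 and CDKN1C 72.1 against 25.1, so the differences were seen within G1 as well. In the 16 G2M cells TOP2A had 997 CPM, against 652 in the other G2M cells. These cells were called by the other G2M genes, and whether they were dividing was not tested. The median over the replication members in G1 was -1.56, against -0.25 over all genes. Of 9 genes of the dissociation response at the minimum in ENC 4', 6 were higher and 2 lower, and of 17 p53 targets, 7 were higher and 4 lower. Their part in the levels of the members was not tested.

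**Figure D4:**
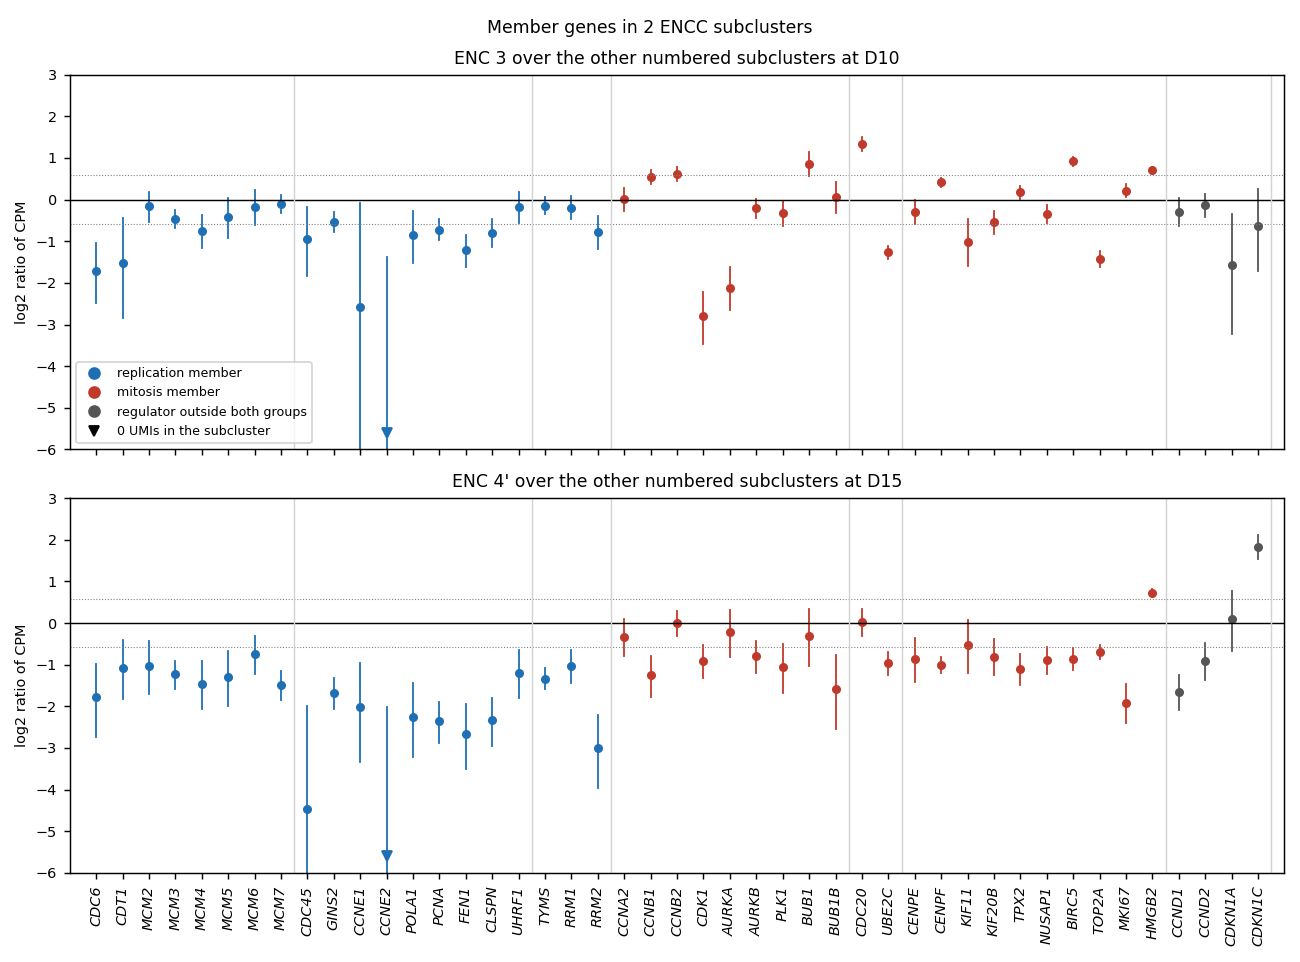
Log2 ratio of CPM of each member in ENC 3 (upper panel) and ENC 4' (lower panel) over the other numbered ENCCs of the same library, grouped by role, with 95% counting intervals as bars, dotted lines at a ratio of 1.5 up and down and triangles for members with 0 UMIs. In ENC 3 the mitosis members lie on both sides, from CDK1 at -2.80 to CDC20 at 1.33, and in ENC 4' all replication members lie below 0 while CDKN1C lies at 1.82.

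The cells that the quality filters removed carry no annotation and were compared with the kept cells of their library. At D10 the 2332 removed cells had a median of 3679 UMIs, and 318 of them had over 3500 genes. There, 1 replication member, UHRF1, was lower (0.949% of all genes), 0 replication and mitosis members were higher (8.57%), and the medians were -0.27 and -0.08. At D15 the 984 removed cells had a median of 21367 UMIs, and 929 had over 3500 genes, the upper limit of the authors. Of the mitosis members 9 were higher and 0 lower, and of the replication members 5 were lower and 0 higher, where 13.8% of all genes were higher and 1.88% lower, with medians of 0.57 and -0.40. AURKA had 42.3 CPM in removed against 21.1 in kept cells (log2 ratio 1.00, 0.88 to 1.12), UBE2C 283 against 148, PLK1 62.5 against 32.8, TOP2A 475 against 286 and CCNB1 87.4 against 54.5, while PCNA had 75.3 against 114 and MCM3 68.7 against 109. CDKN1A was higher in the removed cells of both libraries, with 20.2 against 9.22 CPM at D10 and 35.0 against 14.8 CPM at D15.

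With all deposited cells scored together without the members, 47.8% of removed and 25.8% of kept D15 cells were in G2M, and the removed cells were also the deeper ones. All 17 neuronal markers at the minimum were higher in the removed D15 cells, and by their profile outside the members and phase genes 563 of the 984 lay closest to the ENCCs and 341 to CP1. In the 563 cells closest to the ENCCs, 17 of 21 mitosis members were higher than in the annotated ENCCs, where 2.08% of all genes were, with a median log2 ratio of 0.87. TOP2A had 620.0 CPM there against 297, AURKA 53.4 against 21.5 and PLK1 84.9 against 33.7. Adding the removed cells closest to the ENCCs to both stages left 8 replication members higher at D15 and 0 lower, and 3 mitosis members lower, where 15.6% of all genes were higher and 19.0% lower. The median of the mitosis members was -0.29 with these cells and -0.51 without. Doublets, larger cells and cells in G2M can each exceed a limit on genes or UMIs, and these were not told apart.

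**Figure D5:**
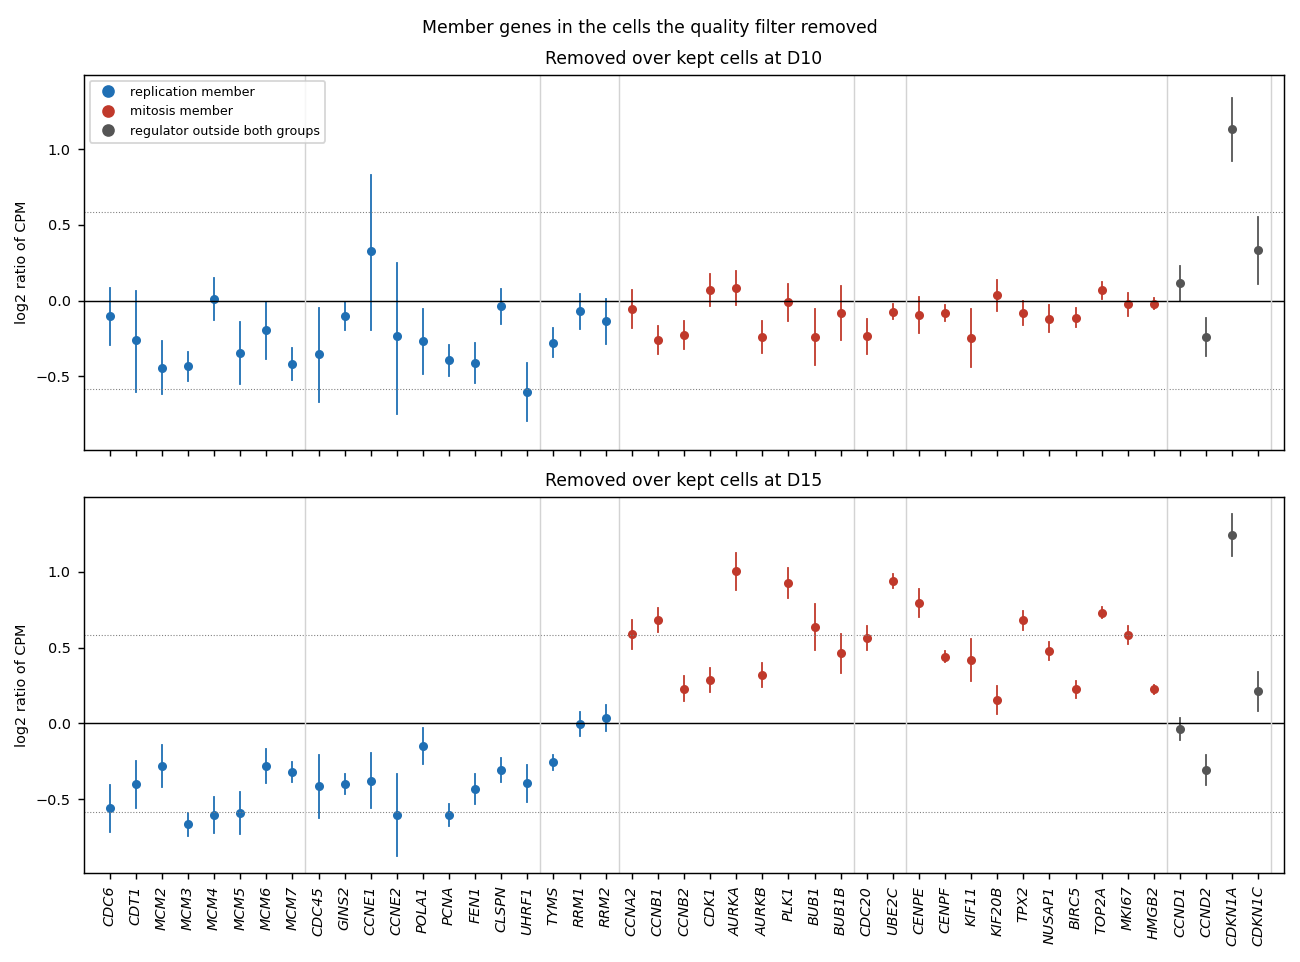
Log2 ratio of CPM of each member in removed over kept cells at D10 (upper panel) and D15 (lower panel), grouped by role, with 95% counting intervals as bars and dotted lines at a ratio of 1.5 up and down. At D15 all 21 mitosis members lie above 0 and 19 of 20 replication members below it; at D10 the medians are -0.27 and -0.08, and CDKN1A is above 1 in both panels.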

How the data were processed

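Raw UMI counts per gene and cell, deposited by the authors for a D10 and a D15 library from H9 cells (10x Chromium 3′ chemistry), were used with the deposited per-cell metadata (phase, cell type and subtype). Per the labels, the submitters' processing notes name Cell Ranger, Seurat 4.0.4 and GRCh38, whereas the published methods name kallisto and bustools. The authors kept cells of at most 3500 genes, with further quality limits, and regressed S and G2M scores out before clustering. The percent of mitochondrial counts, also deposited by the authors, was not used. No doublet caller was run here. Members in the S and G2M scoring sets numbered 16 and 17.

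Counts were summed per class and given as CPM of all UMIs in that class, which bears on every level since a shift in a few abundant genes moves all others. Ratios carry exact conditional 95% intervals, levels exact Poisson intervals and shares Clopper-Pearson intervals, all for counting error only. Under TMM and standardised phase shares, the interval of the main ratio was shifted with the value. For standardised shares this leaves out the counting error of phases with few cells. A class with 0 UMIs was given a floor of 3 UMIs. Phases were scored with Seurat 5.3.0 (R 4.3.3), TMM factors came from edgeR 4.0.16, and the rest from Python 3.11.15 with numpy 2.4.6, scipy 1.17.1 and pandas 2.3.3. Removed cells were given the type whose summed profile, without members and phase genes, was closest. Thinning was drawn with a fixed seed, which was changed once after results had been seen, for a reason unrelated to the values. 5 further draws show how far values moved with the draw. The ratio and call steps were tested on simulated data. Alternatives were TMM, a fold of 2, other minimum levels, numbered ENCCs, a depth window, rescored phases and standardised phase shares, and 4 settings were added after the data were seen.

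The members and lists were chosen with earlier results of these data known. Named members were the highest and lowest stage ratio of each role, those outside the scoring sets, the regulators, MKI67, TOP2A and PCNA. Of 12 other pathway genes past 2-fold in ENCCs, the 8 largest ratios were named, a choice made after their values were seen, as were other members named where a count of 5 or fewer is given or a value stands out.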

Additional observations from a re-analysis of the deposited data

Results flagged for a closer look

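Contrasts that ran in opposite directions at the 2 stages are given here as values. With 1 library per stage, the difference between the stages was not tested.

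Single genes were searched only among the 4 regulators. Of these, CDKN1A alone was called in opposite directions at the 2 stages in the phase contrasts. With phases scored without the members, its log2 ratio of S over G1 in ENCCs was 1.86 at D10 and -1.59 at D15, and that of G2M over G1 was 0.67 at D10 and -0.86 at D15. Of its UMIs in D10 ENCCs, 19.9% lay in G1 cells, 48.7% in S cells and 31.5% in G2M cells, against 63.1%, 10.8% and 26.1% at D15. All UMIs of these cells were spread 37.4%, 25.3% and 37.3% at D10 and 44.1%, 22.7% and 33.2% at D15. The profile rests on 53, 130 and 84 UMIs at D10 and 399, 68 and 165 UMIs at D15.

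Removed cells closest to the ENCCs differed from the annotated ENCCs in opposite directions at the 2 stages. The median log2 ratio over the mitosis members was -0.30 at D10, with all 21 members below 0, and 0.87 at D15, with all 21 above 0. CDKN1A had a log2 ratio of -0.59 in the same contrast at D10, on 26 UMIs, and 0.59 at D15. The removed cells were shallow at D10 and deep at D15, with medians of 3679 and 21367 UMIs over all removed cells, and the part of depth was not tested.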

How the results depend on the processing

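Each summary was recomputed under the alternatives, of which 128 values stayed within 1.5 times the reported count or within the spread allowed and 37 moved. Among single genes, 1050 values stayed, 427 moved and 10 turned in direction. In the stage comparison of ENCCs, a fold of 2 left 4 replication members higher and 2 mitosis members lower. Of all 9257 genes, 849 were higher and 665 lower at that fold. TMM scaling moved the median of all genes to 0.03, with 1856 genes higher and 1225 lower in place of 1430 and 1866, and gave 5 mitosis members lower and medians of 0.63 and -0.34. Standardising to the D10 phase shares gave 5 mitosis members lower and a median of -0.37, where 1843 of 9257 genes were lower. Adding the removed cells closest to the ENCCs gave 3 and -0.29, where 1763 of 9295 genes (19.0%) were lower. Thinning to 3000 UMIs gave a median of -0.44. HMGB2 turned to 0.10, 0.030 and 0.051 with TMM, standardising and added cells, and NUSAP1 to 0.12 with the added cells. Over whole libraries, kept cells alone gave 0 mitosis members higher, 5 lower and a median of -0.33, with the shares of all genes not recorded. Medians of S over G1 at D10 were 1.98 with deposited phases, 1.64 without the members and 1.34 at 3000 UMIs, and those of G2M over G1 were 3.65, 3.43 and 3.13. At D15 they were 1.47, 1.08 and 0.95, and 3.19, 2.32 and 2.31, with 1.30 and 2.57 from the full sets. Over 5 further draws of 3000 UMIs these thinned medians lay between 1.21 and 1.32 and between 2.95 and 3.13 at D10, and between 0.83 and 0.94 and between 2.17 and 2.32 at D15. Shares of all genes were not recorded for counts standardised to the ENCC phase shares. Standardised in this way, the members lower by shifted intervals numbered 2 in CP, 6 in NEP and 5 in NNE at D10 and 12 in CP1 and 8 in NEP at D15. TOP2A then turned to 0.15 in NEP at D10 and 0.19 in CP1. TMM made 3 members lower in Mes, where the share of all genes was not recorded. Of all genes in ENC 4', 24.6% were lower and 9.1% higher without standardising. Standardised ENC 4' had 16 of 41 replication and mitosis members past 1.5-fold by shifted intervals, on 2 S and 16 G2M cells. TOP2A, CDK1, CENPF and NUSAP1 turned to 0.37, 0.43, 0.24 and 0.35 there. Removed cells closest to the ENCCs had 0 replication members lower at D10. At D15 they had 1 lower, and 17 mitosis members higher where 2.08% of all genes were. TOP2A was detected in 44.5% and 47.8% of D10 and D15 ENCCs at 5000 UMIs and in 51.4% and 61.3% without thinning, and the share expected over all thinnings to 3000 UMIs was 34.7% and 38.0%. Standardising CP2 could not be computed, since it held 0 S and G2M cells. No paired analysis was possible because each group has 1 library and its pooled repeats cannot be separated. The full-set scoring, the added removed cells, the removed cells over ENCCs and the further draws were chosen after seeing the data. The cause of each change was not tested.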
